A study of Rattus norvegicus with 3 samples.

Results

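The genes described here are 150 long noncoding RNA (lncRNA) genes whose levels in rat sciatic nerve stood on the same side of the sham level in both crushed-nerve libraries. They are 150 of 22127 lncRNA rows in the deposited gene table, and of 11516 rows that passed the level filters. The members were chosen by their measured levels: after 3 very abundant rows were left out, a row needed a mean of at least 2 CPM (its count scaled in the usual way to the lncRNA counts that remained in its library), and the 100 rows with the highest means were left out. Each remaining row was scored by the smaller of its absolute log2 ratios of (CPM + 1), model over sham and AKBA over sham, where both ratios had the same sign, and the 150 largest scores were taken. The model and AKBA differences from sham are therefore a description of the choice and carry no test.

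Long noncoding RNAs are transcripts that are not translated into a known protein. Some act in the nucleus on chromatin and transcription, others in the cytoplasm on the stability or translation of messenger RNAs, and many have no known role. Their levels often differ strongly between cell types, so in injured nerve they can follow the cells present as well as the state of those cells. The members carry identifiers of NONCODE, a database of noncoding transcripts, and no name. None of the 22127 identifiers (0 matches) was found in the RefSeq gene table, so no role or position is given for any of them.

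The nerves came from male rats of the SD strain, and each group had 1 library. In the sham group the nerve was exposed and not injured, in the model group it was squeezed with vascular forceps, and in the AKBA group it was squeezed and the rat was treated with AKBA, the boswellic acid derivative of Boswellia resin. All libraries are labelled as day 30 after injury. The label of the model library gives its treatment only as control, and it is read as crushed and untreated from its title letter and the series design text. The sources used here do not give the age of the rats, the dose of AKBA or the number of rats behind a library. They also do not say how long AKBA was given. No difference below has a replicate check, and each compares libraries, not conditions. In such whole-tissue RNA, fewer cells of a type and less RNA per cell cannot be told apart.

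In the lncRNA table the sham library summed to 19245904 counts, the model library to 22847792 and the AKBA library to 28987731. The 3 rows left out took 32.9%, 32.2% and 45.4% of them, which left 12914135, 15488354 and 15829885 counts as the totals behind the CPM values. The myelin protein gene Pmp22, listed here among the markers of myelinating Schwann cells, stood at 4503, 11211 and 9417 CPM of the mRNA table in sham, model and AKBA. Intervals below are exact 95% counting intervals of a ratio of CPM values, which cover counting error only. At 2 CPM in both libraries the model to sham ratio had an interval of 0.571 to 1.74, and at 20 CPM the interval was 0.847 to 1.19. Where nothing was counted, up to 3 counts are still possible, which is 0.232 CPM for the sham library, 0.194 for model and 0.190 for AKBA.

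Of the 150 members, 118 were higher in both crushed-nerve libraries than in sham and 32 were lower in both. Every one of them was at least 2-fold apart from sham on the log2 (CPM + 1) scale in both libraries, which the choice fixes. Among all 11516 kept rows, model exceeded sham by 2-fold or more in 5.47% and lay below it by that much in 2.51%. In AKBA against sham these shares were 6.18% and 4.72%. The shares moved with the scaling, to 3.78% higher and 3.75% lower in model with TMM factors and 3.55% and 4.06% with upper quartile factors. For AKBA they were 5.51% and 5.37%, and 4.93% and 5.89%. Both comparisons use the same sham library. The split of higher to lower members depended on the scaling. Repeating the choice gave 94 to 56 with TMM factors and 85 to 65 with upper quartile factors, which moved the median model to sham ratio of all kept rows by -0.14 and -0.16 on the log2 scale and the AKBA to sham median by -0.05 and -0.09. It gave 95 to 55 when the 3 abundant rows were kept in the totals. The 118 and 32 members themselves stayed at least 2-fold apart from sham, in the same direction, under both factors.

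**Figure D1:**
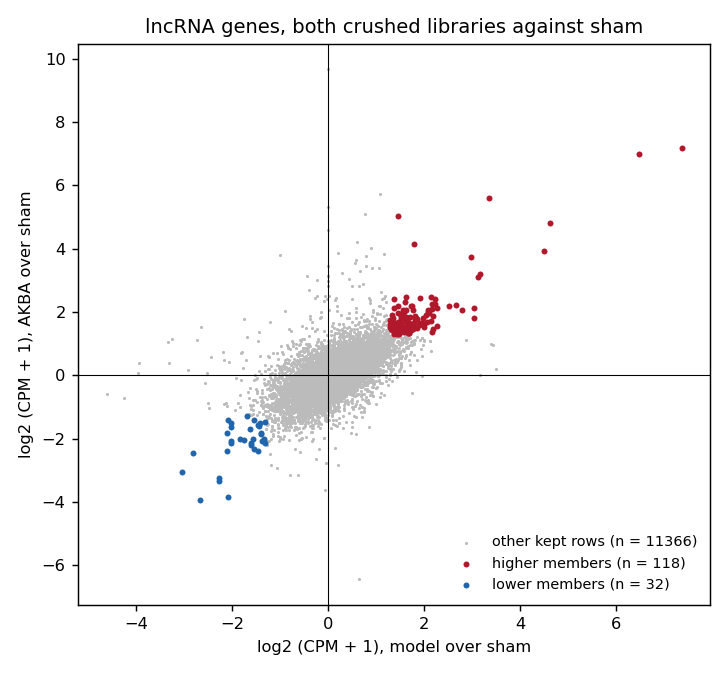
Each point is 1 of 11516 lncRNA genes, with the log2 ratio of (CPM + 1) of model over sham on the x axis and of AKBA over sham on the y axis. The 118 higher members (red) and the 32 lower members (blue) are the outer points of the upper right and lower left corners, as the choice requires, and grey points are the other kept genes.

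The 118 higher members had a median level of 2.32 CPM in the sham library, 12.2 CPM in model and 13.3 CPM in AKBA. Their median log2 ratio of (CPM + 1) was 1.67 in model and 1.69 in AKBA over sham, against 0.13 and 0.05 for all kept rows. With members listed at 0 in sham set to the bound that 3 counts allow, the median log2 ratio of plain CPM was 2.17 in model and 2.07 in AKBA. The 105 higher members with over 3 counts in sham were 2.48 to 31.9 times higher in model (median 4.17) and 2.64 to 55.0 times higher in AKBA (median 3.99).

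The 32 lower members had a median level of 9.80 CPM in the sham library, 2.20 CPM in model and 1.77 CPM in AKBA. Their median log2 ratio of (CPM + 1) was -1.65 in model and -2.03 in AKBA over sham. For the 31 lower members above 0 in every library, the sham level was 2.66 to 11.5 times the model level (median 4.38) and 3.41 to 28.4 times the AKBA level (median 5.43).

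**Figure D2:**
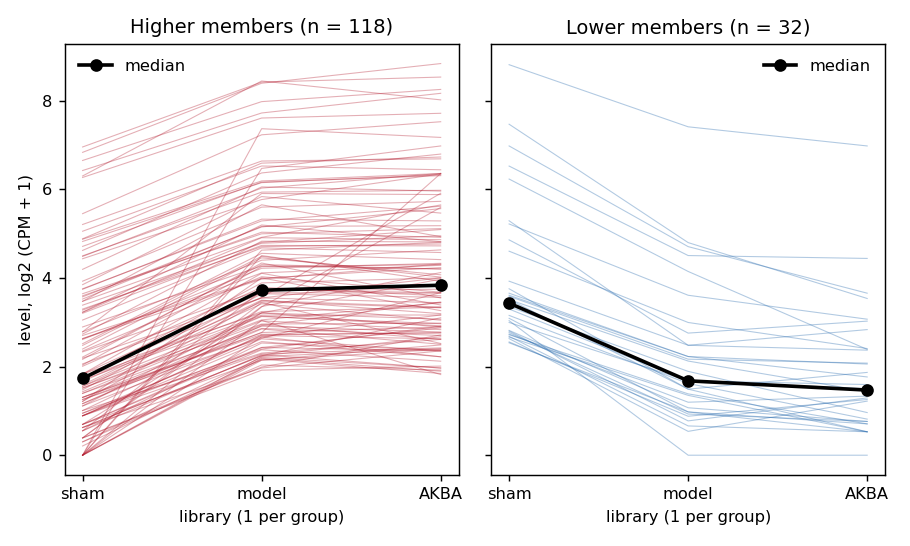
Level of every member as log2 (CPM + 1) on the y axis in the sham, model and AKBA libraries on the x axis, 1 thin line per gene, with the 118 higher members on the left, the 32 lower members on the right and their medians in black. Both crushed-nerve libraries lie apart from sham on the same side, as the choice requires. The medians of model and AKBA lie closer to each other than to sham, which the choice favours.

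A set of higher members was not detected in sham at all. Of the 118 higher members, 10 (8.47%) had 0 counts in sham, and 13 (11%) had 3 counts or fewer there. Among all kept rows, 22 rows (0.191%) were at 0 and 27 rows (0.234%) at 3 counts or fewer in sham. Of the 22 rows at 0 in sham, 12 were not members. A row at 0 in sham passes the level filter only through the crushed-nerve libraries. It scores high where both of them hold it, so the larger share among the members follows from the choice. NONRATG023252.2 had 0, 2547 and 2259 counts in the order sham, model, AKBA, or 0, 164 and 143 CPM. Set against 3 counts in sham, it was 708-fold higher in model and 614-fold higher in AKBA. The lower ends of the exact intervals were 575 and 499. NONRATG020804.2 had 0, 1358 and 1985 counts (0, 87.7 and 125 CPM), 377-fold and 540-fold higher in the same way, with lower ends of 307 and 439. These 2 members had the largest scores, 7.17 and 6.47 on the log2 scale, and both crushed-nerve libraries held 1358 counts or more of each.

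NONRATG020822.2 had 0, 367 and 426 counts (0, 23.7 and 26.9 CPM). Against 3 counts in sham it was 102-fold higher in model, with a lower end of the interval of 82.5. NONRATG023230.2 had 0, 336 and 224 counts (0, 21.7 and 14.2 CPM). Against 3 counts in sham it was 93.4-fold higher in model, with a lower end of 75.5. NONRATG019609.2 had 0, 142 and 747 counts, or 0, 9.17 and 47.2 CPM. The first of these 3 did not differ between the crushed-nerve libraries beyond counting error, whereas the second was lower and the third higher in AKBA than in model. The other 5 members at 0 in sham were NONRATG025051.2 (7.23 CPM in model and 2.53 in AKBA), NONRATG000002.2 (5.36 and 3.66), NONRATG021363.2 (3.68 and 4.30), NONRATG026822.1 (3.55 and 2.72) and NONRATG021328.2 (3.42 and 4.61). All 5 rested on 40 to 112 counts in each crushed-nerve library. The 3 members at 2 or 3 counts in sham, NONRATG000491.2, NONRATG017824.2 and NONRATG027965.1, stood at 3.10 to 3.62 CPM in model and 2.59 to 2.91 CPM in AKBA. For NONRATG027965.1, with 2, 54 and 41 counts, the model to sham ratio was 22.5 with an interval of 5.94 to 191.

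The next members by score were detected in every library. NONRATG009199.2 had 6, 187 and 196 counts (0.465, 12.1 and 12.4 CPM), a ratio of 26.0 in model (interval 11.7 to 71.7) and 26.6 in AKBA (12.0 to 73.5). NONRATG010470.2 had 76, 912 and 916 counts (5.89, 58.9 and 57.9 CPM), a ratio of 10.0 in model (7.91 to 12.8) and 9.83 in AKBA (7.78 to 12.6). For both genes the AKBA and model levels agreed within counting error, with AKBA to model intervals of 0.835 to 1.26 and 0.896 to 1.08. NONRATG001060.2 had 4, 143 and 260 counts (0.310, 9.23 and 16.4 CPM) and was higher in AKBA than in model by 1.78 times (1.45 to 2.20).

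**Figure D3:**
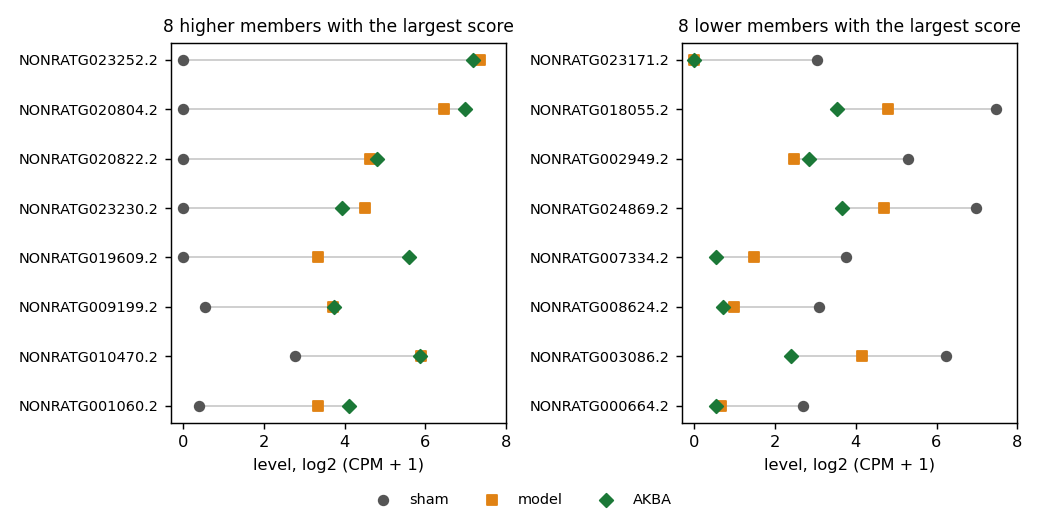
Levels as log2 (CPM + 1) on the x axis of the 8 higher (left) and 8 lower (right) members with the largest score, with sham as grey circles, model as orange squares and AKBA as green diamonds, 1 library each. Sham lies at 0 in 5 of the 8 higher genes, and model and AKBA both lie at 0 for NONRATG023171.2.

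The most abundant higher members were already well detected in sham. NONRATG000572.2 stood at 113, 335 and 456 CPM in sham, model and AKBA, on 1462, 5192 and 7219 counts. NONRATG015890.2 stood at 123, 341 and 369 CPM and NONRATG005087.2 at 99.4, 251 and 304 CPM. These 3 genes were each higher in AKBA than in model, by 1.36 (1.31 to 1.41), 1.08 (1.04 to 1.12) and 1.22 times (1.16 to 1.27). NONRATG009053.2 went the other way between the crushed nerves, at 77.8, 347 and 258 CPM, an AKBA to model ratio of 0.744 (0.714 to 0.775).

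Summed over the higher members, the sham library held 1227 CPM, the model library 4308 and the AKBA library 4821, or 0.123%, 0.431% and 0.482% of the counts. The 5 most abundant of them held 498, 1485 and 1673 CPM. Without these 5 the sum was 729 CPM in the sham library, 2823 CPM in model and 3148 CPM in AKBA, 3.88 and 4.32 times, against 3.51 and 3.93 times with them.

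Among the lower members, NONRATG023171.2 had 93 counts in sham (7.20 CPM) and 0 counts in both model and AKBA. Set against 3 counts there, it was 37.2-fold lower in model and 38.0-fold lower in AKBA. The exact intervals of its ratios to sham reached up to 0.0337 and 0.033. It was the only 1 of the 11516 kept rows at 0 in both crushed-nerve libraries. NONRATG018055.2 stood at 176, 26.8 and 10.6 CPM, on 2278, 415 and 168 counts. Its model level was 0.152 of the sham level (0.136 to 0.169) and its AKBA level 0.0602 (0.0511 to 0.0704). NONRATG024869.2 stood at 125, 25.1 and 11.6 CPM and NONRATG003086.2 at 74.1, 16.7 and 4.23 CPM. In these 3 genes AKBA was lower again than model, by over 2-fold in each.

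Of the other lower members named by score or level, 4 had an AKBA to model interval that held 1. NONRATG002949.2 stood at 38.1, 4.58 and 6.13 CPM, with an AKBA to model interval of 0.974 to 1.84. NONRATG005821.2 stood at 91.0, 21.7 and 20.7 CPM, with an interval of 0.815 to 1.11. NONRATG008624.2 (7.51, 0.968 and 0.632 CPM) and NONRATG000664.2 (5.42, 0.581 and 0.442 CPM) rested on 7 to 15 counts in the crushed nerves, and their intervals also held 1. NONRATG007334.2 was lower again in AKBA, at 12.5, 1.81 and 0.442 CPM, with an AKBA to model ratio of 0.245 (0.0902 to 0.573).

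The most abundant lower member, NONRATG021687.2, stood at 448, 169 and 125 CPM on 5784, 2612 and 1986 counts. The 32 lower members summed to 1224 CPM in the sham library, 330 CPM in model and 230 CPM in AKBA, of which it is the largest part in each. Without it the sum went from 776 to 161 and 105 CPM, so the sham sum was then 4.81 times the model sum and 7.39 times the AKBA sum, against 3.71 and 5.31 times with it.

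AKBA against model asks how alike the treated and untreated crushed nerves were in these genes. The comparison is the difference of the ratios that chose the members, so it is given as a description. The median log2 ratio of (CPM + 1) was 0.02 for the higher and -0.22 for the lower members, against -0.08 for all kept rows. On that scale, at least 2-fold apart were 4 members that were higher and 4 that were lower in AKBA, 2.67% each, against 2.72% and 2.92% of all kept rows. The 2 directions differed in this. At least 2-fold lower in AKBA were 3 of the 32 lower members (9.38%) and 1 of the 118 higher members (0.847%). At least 2-fold higher in AKBA were 4 higher members (3.39%) and 0 lower members. For 86 of 150 members (57.3%) the exact interval held 1, against 43.8% of all kept rows. That share depends on depth as well as on the difference. The interval lay above 1 for 36 members (24.0%, against 21.2% of kept rows) and below 1 for 28 (18.7%, against 35.1%). These shares were computed with CPM scaling only. The median of all kept rows, -0.08 there, was 0.00 with TMM and -0.01 with upper quartile factors. The shares above and below 1 can therefore move with the scaling, and how far was not examined.

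Of the 118 higher members, 62 had the order sham, model, AKBA from low to high and 56 had model highest. Of the 32 lower members, 24 had their lowest level in AKBA and 7 in model, and NONRATG023171.2 was at 0 in both. The choice fixes sham as the lowest or the highest library, so shares over all orders are not a like comparison. Among all kept rows, sham was lowest with AKBA highest in 2477 (21.5%) and with model highest in 2636 (22.9%). Sham was highest with AKBA lowest in 2244 (19.5%) and with model lowest in 1176 (10.2%). The AKBA to model interval was below 1 in 12 of the 32 lower members (37.5%), against 35.1% of all kept rows. It was above 1 in 1 lower member (3.12%, against 21.2%), NONRATG016777.2 (5.19, 0.452 and 1.33 CPM). Of the higher members, it was above 1 in 35 (29.7%) and below 1 in 16 (13.6%). The lower members had medians of 2.20 CPM in model and 1.77 in AKBA, against 13.2 and 12.6 for all kept rows. Their shares are therefore not like those of all kept rows in depth.

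The members that differed most between the crushed nerves were higher in AKBA. NONRATG024007.2 stood at 1.47, 5.81 and 80.9 CPM, on 19, 90 and 1280 counts, and was 13.9 times higher in AKBA than in model (11.2 to 17.4). NONRATG003606.2 stood at 2.40, 10.8 and 59.1 CPM and was 5.45 times higher (4.62 to 6.46). NONRATG019609.2, at 0 in sham, was 5.15 times higher (4.30 to 6.20). NONRATG019105.2, at 1.39, 5.23 and 11.7 CPM, was the fourth member at least 2-fold higher on the log2 (CPM + 1) scale, which shrinks the ratios of low genes. The first 3 stand apart in the plot of AKBA to model ratios. In the same libraries the 9 skeletal muscle markers, all measured and none at 0, summed to 383, 791 and 5966 CPM of the mRNA table, and 9 of 9 were higher in AKBA than in model. The 4 hair and skin keratinocyte markers, also all measured and none at 0, summed to 4.99, 3.99 and 90.1 CPM, and 4 of 4 were higher in AKBA than in model. In sham and model, Krt86 had only 5 and 3 counts and Krt14 only 12 and 5. Tchh alone held 69 of the 90.1 CPM in AKBA. The part of muscle, hair or skin RNA in the levels of these lncRNA members was not tested.

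Lower in AKBA than in model by at least 2-fold on the log2 (CPM + 1) scale were NONRATG003086.2, with a plain CPM ratio of 0.254 (0.191 to 0.334), NONRATG018055.2, with 0.396 (0.329 to 0.475), NONRATG024869.2, with 0.461 (0.385 to 0.552), and NONRATG025051.2. The last is a higher member, at 0, 7.23 and 2.53 CPM, with a ratio of 0.349 (0.237 to 0.506). The other 3 are lower members that were highest in sham and lowest in AKBA. The 8 adipocyte markers, all measured and none at 0, had the same order in their sum, at 8012, 4772 and 2490 CPM, and 8 of 8 were lower in AKBA than in model. Model was below sham for 7 of the 8, and Cfd (555, 1031 and 595 CPM) was above it. The 4 mast cell markers, none at 0, summed to 161, 241 and 82.8 CPM, and 4 of 4 were lower in AKBA than in model. Unlike the 3 lower members, 4 of 4 were higher in model than in sham. All 3 perineurial and all 3 red blood cell markers were also lower in AKBA than in model, and 1 of 8 macrophage markers was higher. The part of fat, mast cell or other cell RNA in these values was not tested.

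**Figure D4:**
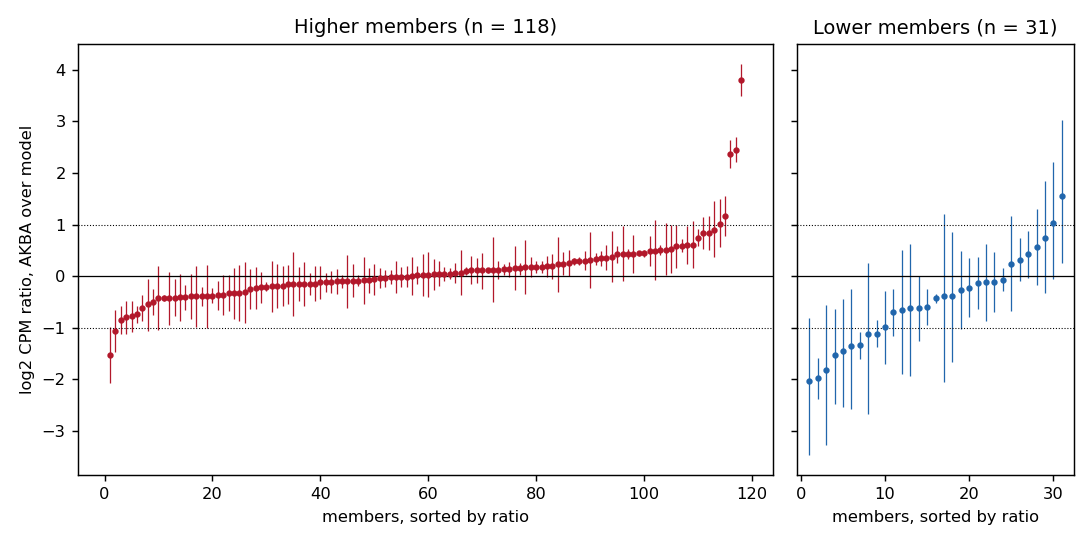
AKBA over model as log2 of the CPM ratio on the y axis for the 118 higher members (left) and 31 lower members (right; the member at 0 in both libraries has no ratio), sorted by ratio along the x axis, with exact 95% counting intervals as bars. The dotted lines mark 2-fold; 3 higher members lie far above the rest, and most others lie within 2-fold.

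Other marker lists also moved between sham and the crushed nerves. Of the 10 markers of myelinating Schwann cells, 9 were higher than sham in each crushed library. The 7 markers of non-myelinating or injured Schwann cells summed to 129, 228 and 290 CPM of the mRNA table, with 6 of 7 higher in each. The 3 perineurial markers summed to 776, 1683 and 1295 CPM and the 4 proliferation markers to 60.5, 118 and 115 CPM. Of 7 endothelial markers 6, and of 3 red blood cell markers 3, were higher than sham in each crushed library. Higher than sham in model and in AKBA were 4 and 5 of 5 smooth muscle and pericyte markers and 5 and 3 of 5 neuron markers. For macrophage markers it was 7 and 2 of 8, and for fibroblast markers 0 and 2 of 6. Every listed marker was in the mRNA table and none was at 0. Their part in the levels of the higher members was not tested.

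The members lay at all levels that the filters allowed. By mean level, 53 members (35.3%) lay from 2 to under 5 CPM, against 24.5% of kept rows, and 53 (35.3%) from 5 to under 20 CPM, against 36.5%. A further 35 (23.3%) lay from 20 to under 100 CPM, against 28.2%, and 9 (6%) at 100 CPM or more, against 10.8%. For 138 members (92.0%) the transcript table held a row with exactly the same 3 counts, against 88.3% of kept rows. Transcripts were not assigned to genes by identifier, so these equal rows are matched by their values only.

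Applied to the mRNA gene table, the same scoring, with no row left out by identifier, kept 13344 genes and chose 120 higher and 30 lower among 150. This split was not repeated with TMM or upper quartile factors, under which the lncRNA split moved. The kept mRNA genes had median log2 ratios of (CPM + 1) over sham of 0.19 in model and 0.16 in AKBA. The smallest score was 1.25 there and 1.29 among the lncRNA members, and the median score 1.48 and 1.54. The mean levels of the chosen genes had a median of 21.3 CPM among mRNA genes and 8.30 CPM among the lncRNA members, each scaled to its own table.

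The choice ended at scores that lay very close together. The last higher members inside were NONRATG011444.2 (1.01, 3.94 and 5.12 CPM; score 1.299) and NONRATG019950.2 (5.50, 14.9 and 17.8 CPM; 1.292). The first outside were NONRATG022619.2 (2.17, 7.42 and 6.76 CPM) and NONRATG004452.2 (0.542, 2.78 and 3.98 CPM), both also at 1.292 when rounded. On the lower side NONRATG004436.2 (5.34, 1.55 and 0.442 CPM; 1.315) and NONRATG023430.2 (4.88, 0.839 and 1.39 CPM; 1.299) were the last inside. NONRATG009209.2 (10.9, 3.87 and 2.65 CPM) and NONRATG009913.2 (97.7, 39.4 and 39.2 CPM), both at 1.290, were the first outside. By score, 8 members lay at 3 or more, 20 from 2 to under 3, 60 from 1.5 to under 2 and 62 below 1.5, so most members are near the end of the choice.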

How the data were processed

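RNA of sciatic nerve from 3 libraries was counted by the authors per lncRNA gene, lncRNA transcript, mRNA gene and mRNA transcript. The deposited values are counts, whole numbers with no normalization. In the model column 2 extra text characters followed each deposited count and were removed. Per the submitters' processing notes, bcl2fastq 2.0, HISAT2, StringTie, DESeq2 and limma were used, with no role given, and the mouse build mm10 is named although the identifiers are those of rat. The sources used here do not give the alignment genome, the strand setting or the treatment of reads that match several genes, so overlapping or near-identical lncRNA genes are uncertain. Probes removed ribosomal RNA and random primers started the cDNA, per the labels' protocols.

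CPM, ratios of log2 (CPM + 1) and exact Clopper-Pearson intervals were computed with Python 3.11.15, pandas 2.3.3 and scipy 1.17.1. TMM and upper quartile factors came from edgeR 4.0.16. The scoring was tested on simulated data with known changes, and the intervals on simulated counts with no change. No test was run because each group had 1 library. The members and lists were chosen with earlier results of these data known.

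Named members are the 8 each way with the largest score, the 4 each way with the highest mean CPM, the 3 each way with the largest AKBA to model ratio of (CPM + 1), and the last 2 inside and first 2 outside the choice each way. Members named after their values were seen are those at 3 counts or fewer in sham beyond this rule, NONRATG016777.2, NONRATG019105.2 and the pairs of consecutive number. The 12 alternatives tried concern scaling, pseudocount, level filter, rows left out, the transcript table and counting error. The mRNA transcript table was not used. The value of 1 marker gene and the sum that holds it are not reported here.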

Additional observations from a re-analysis of the deposited data

How the results depend on the processing

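Repeating the choice under the 12 alternatives kept more higher than lower genes in each. The lower members numbered 56 with TMM, 65 with upper quartile scaling and 55 with the 3 abundant rows kept, against 32. The repeated choice shared 80 of the 150 members at a pseudocount of 5 and 97 at a filter of 5 CPM, and 103 to 148 under the other alternatives on the gene table. In all, 48 members (40 higher, 8 lower) were chosen under all 11 alternatives on the gene table. At a pseudocount of 5, 61 higher and 14 lower members were at least 2-fold apart from sham in both libraries, which the larger pseudocount brings about by construction. Members at least 2-fold lower in AKBA than in model numbered 10 at a pseudocount of 0.1, 2 at a pseudocount of 5, 7 with the 3 rows kept and 2 by the counting bound, against 4. Depth limits the members near 2 CPM. No paired analysis was possible because each group had 1 library.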

Other observations

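Among the 150 members, 5 pairs carried consecutive NONCODE numbers, and both genes of each pair stood on the same side of sham. The sources used here do not say what consecutive numbers stand for. A kept row of consecutive number existed for 115 of the 150 members and for 75.4% of all kept rows. How often consecutive kept rows lie on the same side of sham was not computed, so the pairs have no like comparison. NONRATG015890.2 was at 123, 341 and 369 CPM beside NONRATG015891.2 at 8.83, 25.1 and 26.2 CPM in sham, model and AKBA. NONRATG004255.2 was at 17.3, 65.4 and 61.2 CPM beside NONRATG004256.2 at 3.10, 18.1 and 18.7 CPM. NONRATG007334.2 (a lower member) was at 12.5, 1.81 and 0.442 CPM beside NONRATG007335.2 (also lower) at 5.81, 0.904 and 0.695 CPM. NONRATG021363.2 was at 0, 3.68 and 4.30 CPM beside NONRATG021364.2 at 23.6, 81.6 and 110 CPM. NONRATG022850.2 was at 1.01, 6.59 and 9.98 CPM beside NONRATG022851.2 at 0.619, 8.26 and 6.44 CPM. These pairs were picked out after their values were seen.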
